A study of Arabidopsis thaliana with 16 samples.

Results

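GH3.1 (AT2G14960), GH3.3 (AT2G23170), WES1 (AT4G27260, also named GH3.5) and GH3.17 (AT1G28130) are Arabidopsis thaliana genes of the GH3 family, and they were followed by their probe sets across all arrays of an experiment on ethylene and auxin in seedling roots. They were chosen by name and locus code, with earlier results of these data known, and they are 4 of 13836 features tested. Counts of called genes beside the share of all features are therefore description and no test of the set. Each had 1 probe set that the array annotation assigns to that gene alone. The 4 genes lie on chromosomes 2, 2, 4 and 1.

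GH3 enzymes join a plant hormone to an amino acid. The members described here act on the auxin indole-3-acetic acid (IAA), and the conjugates they form are storage or breakdown forms that no longer act as auxin. Auxin itself switches on several GH3 genes through the TIR1/AFB receptors, the Aux/IAA repressors and the auxin response factors, so that GH3 activity forms a negative feedback on free IAA. WES1 also conjugates salicylic acid, and GH3.17 prefers glutamate as the amino acid. In roots, ethylene acts in part through auxin, and the GH3 genes that auxin switches on are common reporters of auxin response.

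The ethylene experiment had 4 groups, Col in ethylene, Col in air, aux1 in ethylene and aux1 in air. Here Col is the wild type Col-0, and aux1 carries the aux1-7 allele of the gene for an auxin influx carrier. Treated seedlings were kept for 4 h in hydrocarbon-free air with 10 ppm ethylene, and their controls in the same air without it. The auxin experiment had 4 groups as well, Col in IAA, Col in mock, ein2 in IAA and ein2 in mock, where ein2 carries the ein2-5 allele and is insensitive to ethylene. Treated seedlings were sprayed with 1 µM IAA in 0.01% ethanol, mock seedlings with the ethanol solution alone, and both stayed in the dark for 4 h. All groups were seedlings grown for 3 days in the dark at 22 °C, with roots cut from the hypocotyl, and each group had 2 arrays that the series calls biological replicates. Whole roots were measured, so a change in RNA per cell and a change in the number of expressing cells cannot be told apart.

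All values are the authors' GCRMA expression values on a log2 scale, where a difference of 1 is a doubling of signal. The median of an array was 5.874 at the lowest and 6.004 at the highest. Arrays of the same group correlated at 0.993 or more, and Col air had the lowest value. Of the 5 root markers listed, EXPA7, a wall-loosening protein of root hairs, had a named probe set, and it stood between 7.43 and 10.21 on the 16 arrays. None of the 4 shoot markers listed had one, so carry-over of shoot tissue was not tested. GH3.3, WES1 and GH3.17 were above 2.55, the highest lower quartile of any array, on 16 of 16 arrays. GH3.1 was above it on 8 of 16, and its other values are near background, which limits the size of any change that involves them. Changes are differences of log2 group means ± moderated standard error (SE) from limma with n = 2 arrays per group, intervals are 95%, and "called" means a p under 0.05 after Benjamini-Hochberg adjustment over the 13836 features. The share of all features whose arrays did not overlap between groups was not counted. With 2 arrays per group, statements on overlap are therefore description and no test.

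**Figure D1:**
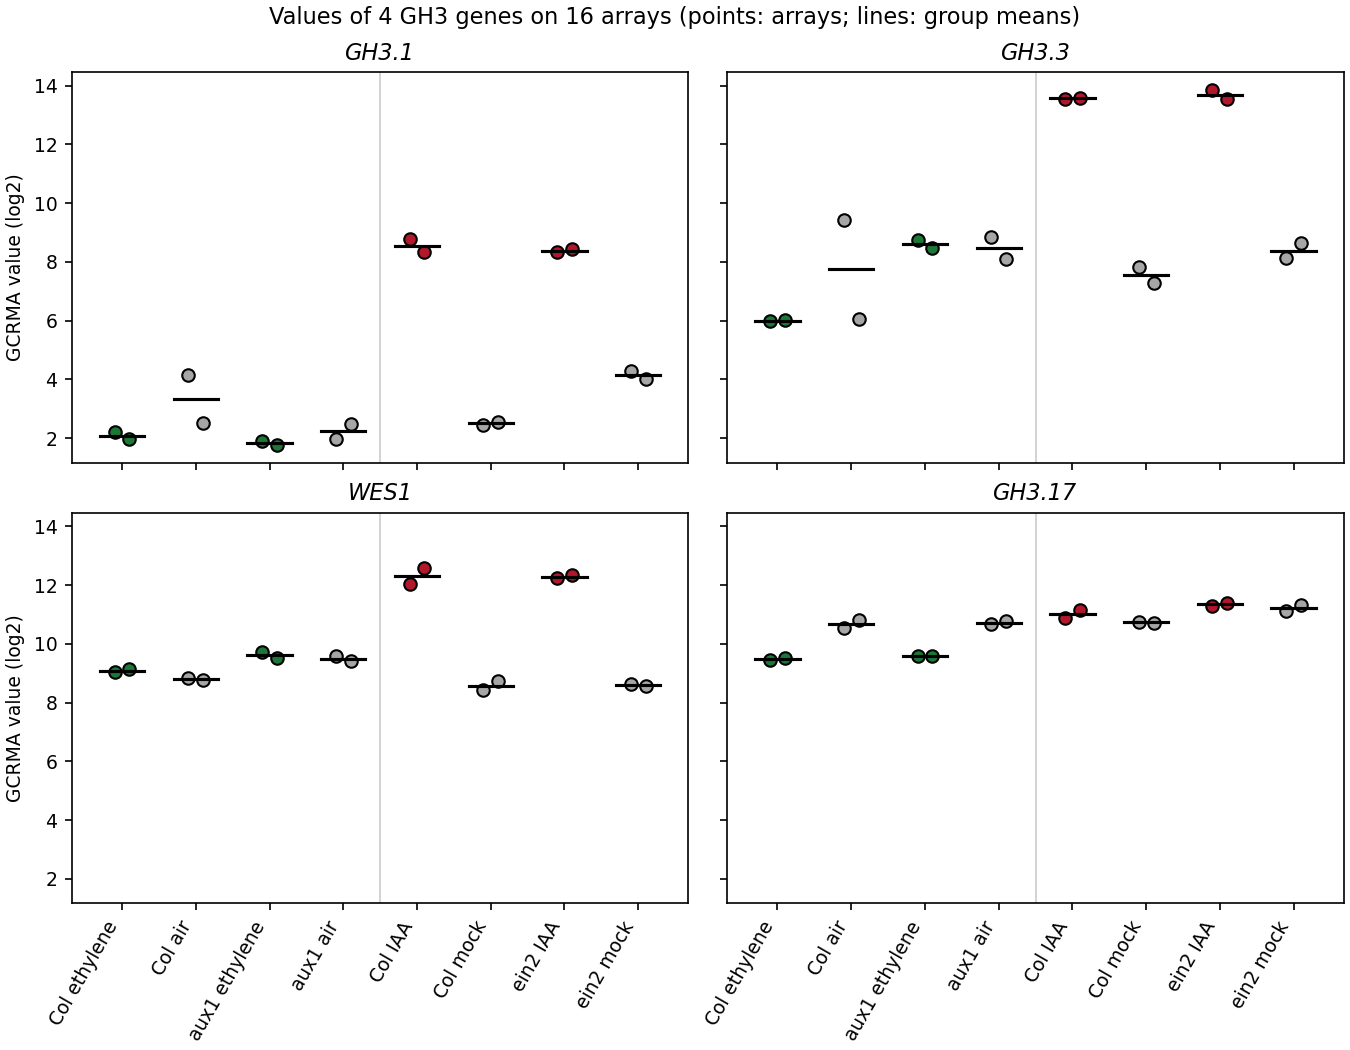
GCRMA values (log2, vertical axis) of GH3.1, GH3.3, WES1 and GH3.17 in the 8 groups; each point is 1 array, each short line a group mean, and the vertical line separates the ethylene experiment (left) from the auxin experiment (right). Both IAA groups stand above all other groups for GH3.1, GH3.3 and WES1, and both ethylene groups stand below all other groups for GH3.17.

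GH3.1, GH3.3 and WES1 rose strongly with IAA in the wild type, and GH3.17 did not pass the test. GH3.1 had 8.79 and 8.32 in Col IAA, against 2.46 and 2.56 in Col mock. The mock values are near background, so no fold is given for the change of 6.05 ± 0.39 (adjusted p = 3.41e-06). GH3.3 had 13.56 and 13.57 in Col IAA, against 7.82 and 7.27 in Col mock. Its change was 6.02 ± 0.75 (64.9-fold, adjusted p = 0.000697). The SE of GH3.3 is estimated over all 8 groups, among them Col air with a gap of 3.40 between its arrays. WES1 had 12.03 and 12.57 in Col IAA, against 8.45 and 8.72 in Col mock, a change of 3.71 ± 0.17 (13.1-fold, adjusted p = 2.32e-07). For these 3 genes the treated and mock arrays did not overlap and lay far apart. GH3.17 had 10.88 and 11.14 in Col IAA, against 10.76 and 10.70 in Col mock. Those arrays did not overlap either, but the change of 0.28 ± 0.13 (interval 0.0015 to 0.56, adjusted p = 0.242) was not called. In all, 3 of the 4 genes were called higher, where 4.2% of all features were. In the order of changes from the highest of 13836 features, GH3.3 was number 3 and WES1 number 14, whereas GH3.17 was number 2129.

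The same 3 genes rose with IAA in ein2 roots. GH3.1 had 8.34 and 8.44 in ein2 IAA, against 4.29 and 4.03 in ein2 mock, and its change was 4.23 ± 0.39 (18.8-fold, adjusted p = 9e-05). GH3.3 had 13.85 and 13.54 in ein2 IAA, against 8.14 and 8.63 in ein2 mock, and its change was 5.31 ± 0.75 (39.7-fold, adjusted p = 0.00219). WES1 had 12.23 and 12.35 in ein2 IAA, against 8.65 and 8.57 in ein2 mock, and its change was 3.68 ± 0.17 (12.9-fold, adjusted p = 3.47e-07). The IAA and mock arrays of each of the 3 genes were again well apart. GH3.17 had 11.29 and 11.39 in ein2 IAA, against 11.12 and 11.34 in ein2 mock. Its arrays overlapped, and the change of 0.11 ± 0.13 (interval -0.17 to 0.39, adjusted p = 0.806) was not called. Here 3 of 4 genes were called higher, where 1.94% of all features were, and GH3.3 was number 2, GH3.1 number 8 and WES1 number 13 from the highest change. The group means of the Col and ein2 IAA comparisons come from separate arrays. The spread behind their calls was estimated for each feature over all arrays together, so these calls are not independent. Both comparisons called 204 features higher, with GH3.1, GH3.3 and WES1 among them. That is 35.1% of the 581 called in Col and 76.1% of the 268 called in ein2. How much of this overlap comes from the shared spread was not tested. Of those 204 features, 147 were not called with ethylene in Col or in aux1, again with GH3.1, GH3.3 and WES1 among them. Ethylene in Col called 30 of the 204 higher and 19 lower. Over all 13836 features, 1219 were called with ethylene in Col and 982 in aux1, so most features had no ethylene call either.

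**Figure D2:**
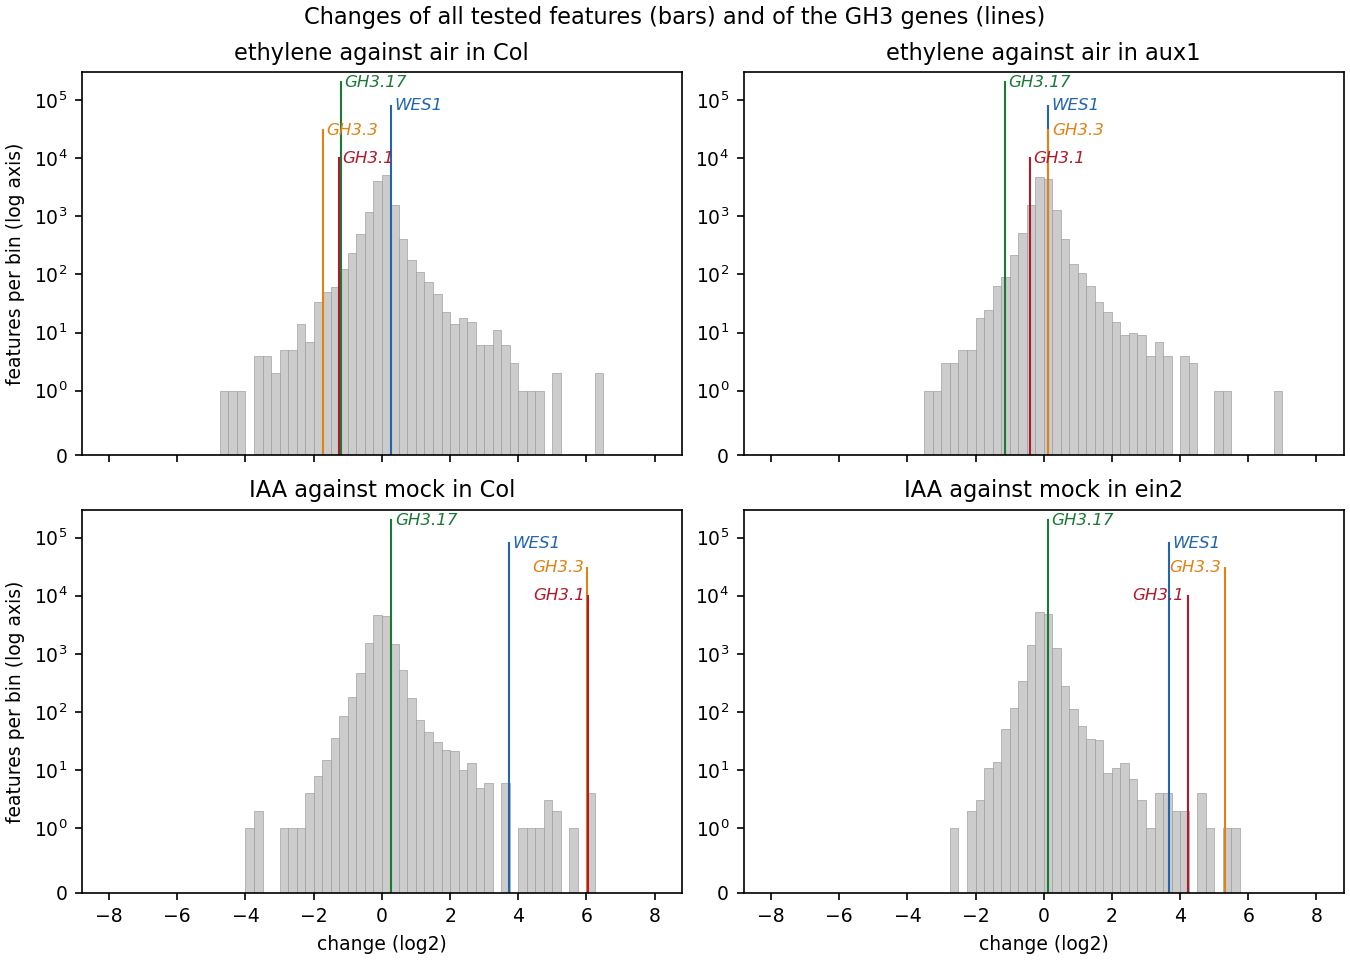
Number of tested features per change of 0.25 on the log2 scale (grey bars, log axis that is linear below 1) with the changes of the 4 GH3 genes as coloured lines of arbitrary height, for ethylene against air and IAA against mock in each genotype. With IAA, GH3.1, GH3.3 and WES1 lie at the far right end in Col and in ein2, and with ethylene GH3.17 lies at -1.20 in Col and -1.14 in aux1.

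A direct limma test of the IAA effect in ein2 minus that in Col called 0 of 4 genes, where 0% of all features were called. In that test 1 gene, GH3.1, had an unadjusted p under 0.05, a looser limit whose share of all features was not counted. For GH3.1 the effect was 4.23 in ein2 and 6.05 in Col, a difference of -1.82 ± 0.55 (interval -3.02 to -0.62, unadjusted p = 0.00662 and adjusted p = 0.955 in limma). Since GH3.1 was near background in Col mock, its effect in Col, and so the size of this difference, is limited by background. For GH3.3 the effect was 5.31 in ein2 and 6.02 in Col, and the difference of -0.71 ± 1.07 has an interval from -3.05 to 1.63. For WES1 the effect was 3.68 in ein2 and 3.71 in Col, and the difference of -0.03 ± 0.24 has an interval from -0.56 to 0.50. For GH3.17 the difference was -0.17 ± 0.18 (interval -0.56 to 0.23). The interval of WES1 is the narrowest of those of the 3 IAA-raised genes, and it leaves room for a difference of up to 0.56 on the log2 scale.

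The mock and IAA levels behind these effects were then compared between the genotypes. In mock, GH3.1 was higher in ein2, with 4.29 and 4.03 in ein2 mock against 2.46 and 2.56 in Col mock, a change of 1.65 ± 0.39 (adjusted p = 0.0182), with no fold given since the Col mock values are near background. GH3.17 was also higher, with 11.12 and 11.34 in ein2 mock against 10.76 and 10.70 in Col mock, a change of 0.498 ± 0.13 (1.41-fold, adjusted p = 0.028). Neither gene's arrays overlapped between these groups. GH3.3 had a change of 0.84 ± 0.75 (adjusted p = 0.541), although its ein2 mock arrays (8.14 and 8.63) both lay above its Col mock arrays (7.82 and 7.27). WES1 stood at 0.02 ± 0.17 (adjusted p = 0.963), with overlapping arrays. Thus 2 of 4 genes were called higher, where 5.35% of all features were. The GH3.1 call was lost without any one of the 4 mock arrays (adjusted p 0.0636 to 0.113), with changes of 1.52 to 1.78 and an SE of 0.495 to 0.497 (0.39 with all arrays). The GH3.17 call was lost without either Col mock array or without ein2 mock replicate 2 (adjusted p 0.101 to 0.189), with changes of 0.39 to 0.52 and an SE of 0.153 to 0.165 (0.13 with all arrays), and it was kept without ein2 mock replicate 1 (0.61, adjusted p = 0.0431).

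With IAA, 0 of 4 genes were called between ein2 and Col in limma, where 7.21% of all features were. In that test 1 gene, GH3.17, had an unadjusted p under 0.05, and the share of all features under that looser limit was not counted. GH3.1 averaged 8.39 ± 0.07 in ein2 IAA and 8.56 ± 0.33 in Col IAA (SD, n = 2 each), a difference of -0.17 (interval -1.02 to 0.68). GH3.3 averaged 13.70 ± 0.22 in ein2 IAA and 13.56 ± 0.0091 in Col IAA, a difference of 0.13 (interval -1.52 to 1.79). WES1 averaged 12.29 ± 0.08 in ein2 IAA and 12.30 ± 0.39 in Col IAA, a difference of -0.01 (interval -0.38 to 0.36). For GH3.1, GH3.3 and WES1 the arrays of the IAA groups overlapped. GH3.17 had 11.29 and 11.39 in ein2 IAA, against 10.88 and 11.14 in Col IAA, and its difference of 0.33 ± 0.13 (interval 0.05 to 0.61, adjusted p = 0.173) was not called. The plot of changes with intervals sets these values beside those of the other comparisons.

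**Figure D3:**
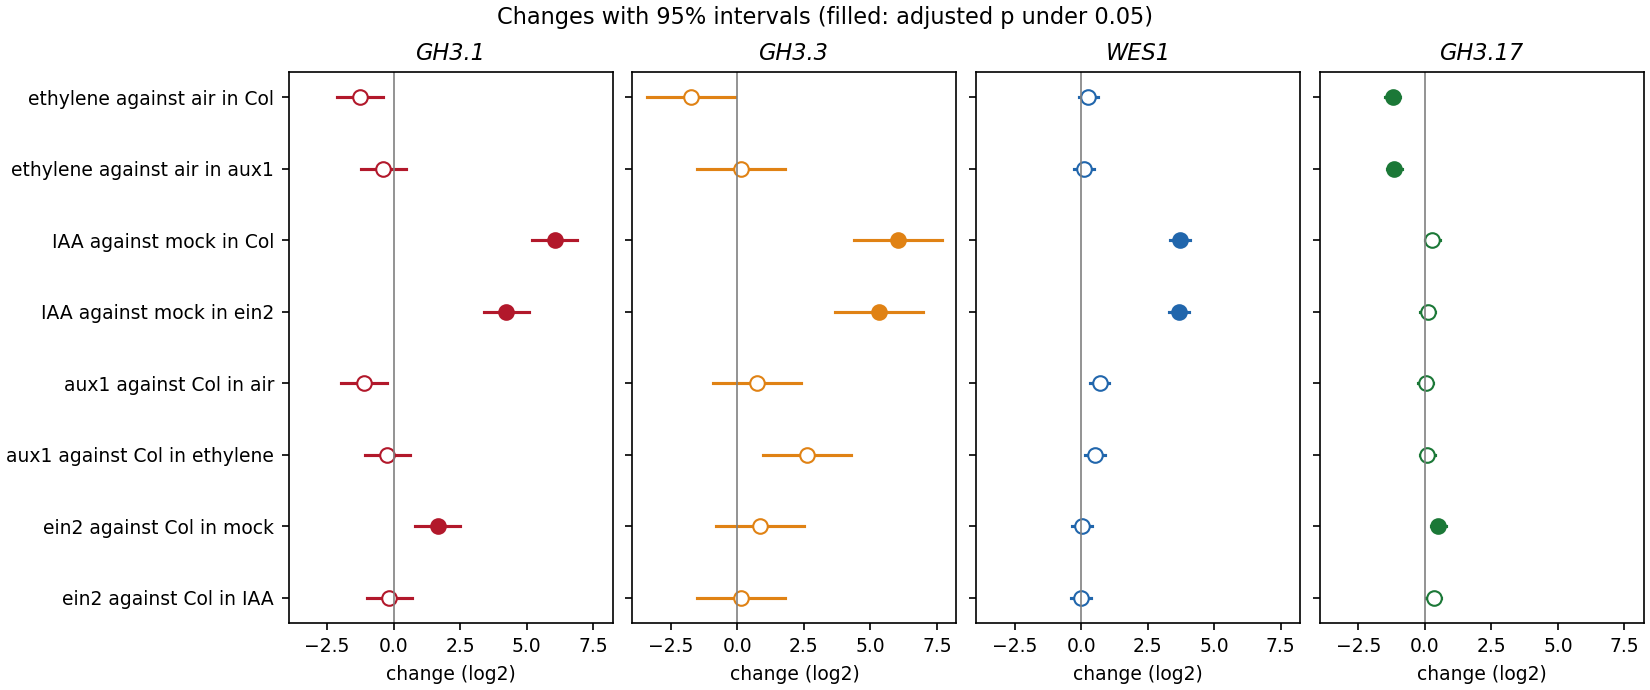
Changes (log2, horizontal axis) of the 4 GH3 genes in 8 comparisons, as differences of group means of 2 arrays with 95% intervals from limma; filled points had an adjusted p under 0.05 over all 13836 features. GH3.1, GH3.3 and WES1 are called in both IAA comparisons, GH3.17 in both ethylene comparisons, and GH3.1 and GH3.17 in ein2 against Col in mock.

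Ethylene lowered GH3.17 in the wild type, and none of the 4 genes was called higher. GH3.17 had 9.45 and 9.53 in Col ethylene, against 10.55 and 10.83 in Col air. The arrays did not overlap, and the change was -1.20 ± 0.13 (2.30-fold lower, adjusted p = 0.000141). WES1 had 9.03 and 9.14 in Col ethylene, against 8.85 and 8.76 in Col air, and its change of 0.28 ± 0.17 (interval -0.09 to 0.65, adjusted p = 0.412) was not called. GH3.1 had 2.20 and 1.97 in Col ethylene, against 4.16 and 2.53 in Col air, a change of -1.27 ± 0.39 (adjusted p = 0.0696). GH3.3 had 5.99 and 6.02 in Col ethylene, against 9.44 and 6.04 in Col air, a change of -1.74 ± 0.75 (interval -3.39 to -0.08, adjusted p = 0.216). For both of these genes Col air replicate 1 was high, while Col air replicate 2 lay close to the ethylene arrays. Of the 4 genes 1 was called lower, where 4.76% of all features were. The root hair marker EXPA7 averaged 9.96 in Col ethylene and 8.70 in Col air (1.26 ± 0.38, adjusted p = 0.0686), and its part in these results was not tested.

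The result for GH3.1 and GH3.3 depends on which Col air array is used. Without Col air replicate 2, the change of GH3.3 was -3.44 (adjusted p = 0.000115) and that of GH3.1 was -2.08 (adjusted p = 0.000417), and 3 of the 4 genes were called lower. Without Col air replicate 1, the change of GH3.3 was -0.04 (adjusted p = 0.98) and that of GH3.1 was -0.45 (adjusted p = 0.33). GH3.17 was called in both cases. Col air had the widest gap between its arrays in the ethylene experiment: 319 of 13836 features (2.31%) were over 1 higher in replicate 1 than in replicate 2, against 81 to 122 features in the other 3 groups. GH3.3 had the 23rd largest such gap and GH3.1 the 134th, with 3.40 and 1.63, while WES1 (0.09) and GH3.17 (-0.27) showed little. Among the 70 features called higher with IAA in Col by over 2 on the log2 scale, 13 (18.6%) were over 1 higher in Col air replicate 1, and 1 in each of the other 3 groups. The IAA change of these features comes from other arrays, but the spread behind their calls was estimated with the Col air arrays included. The part of this array gap in the GH3.1 and GH3.3 results beyond these values was not tested.

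**Figure D4:**
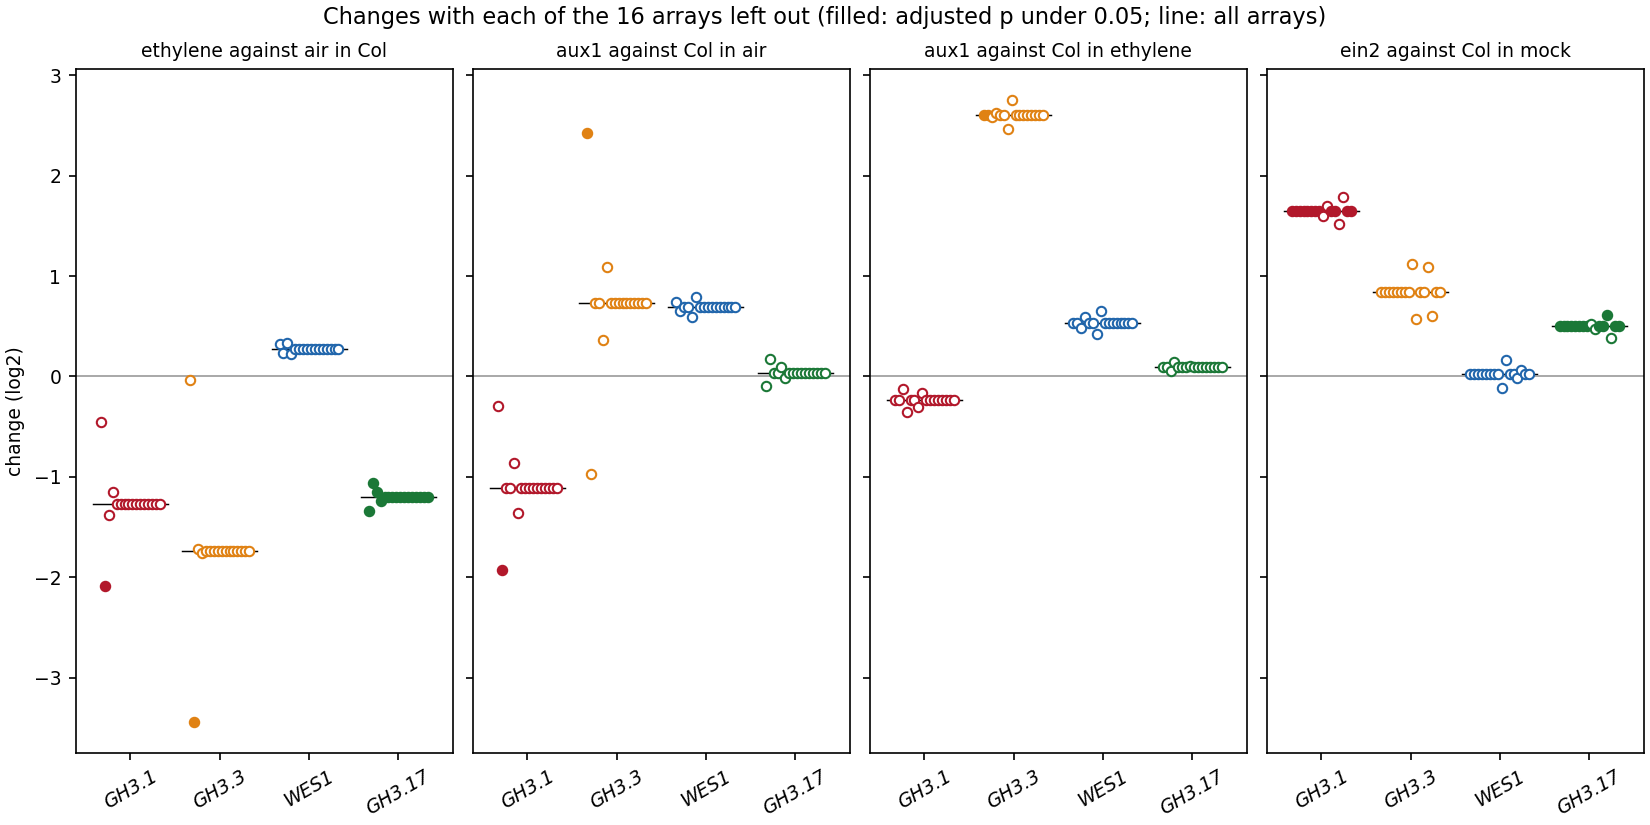
Changes (log2, vertical axis) of the 4 GH3 genes in 4 comparisons when each of the 16 arrays is left out in turn (points, filled where the adjusted p is under 0.05) and with all arrays (lines). With ethylene in Col, GH3.3 spans -3.44 to -0.04 and GH3.1 spans -2.08 to -0.45, while GH3.17 stays between -1.34 and -1.06 and is called each time.

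In aux1 roots, ethylene again lowered GH3.17. GH3.17 had 9.59 and 9.58 in aux1 ethylene, against 10.67 and 10.78 in aux1 air, a change of -1.14 ± 0.13 (2.20-fold lower, adjusted p = 0.000243). GH3.3 had 8.76 and 8.47 in aux1 ethylene, against 8.83 and 8.11 in aux1 air. The arrays overlapped, and the change was 0.14 ± 0.75 (interval -1.51 to 1.79, adjusted p = 0.965). WES1 had 9.74 and 9.51 in aux1 ethylene, against 9.60 and 9.40 in aux1 air, also overlapping, with a change of 0.12 ± 0.17 (adjusted p = 0.784). GH3.1 was near background in both groups, with 1.91 and 1.77 in aux1 ethylene and 1.99 and 2.48 in aux1 air, and no fold is given. Of the 4 genes 1 was called lower, where 3.76% of all features were.

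The limma test of the ethylene effect in aux1 minus that in Col called 0 of 4 genes, where 0.145% of all features were called, and 0 had an unadjusted p under 0.05. For GH3.17 the effect was -1.14 in aux1 and -1.20 in Col, and the difference of 0.06 ± 0.18 has an interval from -0.34 to 0.46. A complete loss of the fall in aux1 lies outside that interval. For WES1 the difference was -0.16 ± 0.24 (interval -0.68 to 0.37). For GH3.3 the effect was 0.14 in aux1 and -1.74 in Col, and the difference was 1.88 ± 1.07 (interval -0.46 to 4.21, adjusted p = 0.912). Without Col air replicate 2 this difference was 3.58 (adjusted p = 0.00318), and without Col air replicate 1 it was 0.18. The difference for GH3.1 was 0.88 ± 0.55 (adjusted p = 0.921), 1.69 without Col air replicate 2 (adjusted p = 0.0373) and 0.06 without Col air replicate 1.

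Levels in aux1 and Col were then compared within each treatment. In air, 0 of 4 genes were called in limma, where 0.679% of all features were. GH3.1 and WES1 had an unadjusted p under 0.05 in limma, a looser limit whose share of all features was not counted. WES1 had 9.60 and 9.40 in aux1 air, against 8.85 and 8.76 in Col air, without overlap, and a change of 0.69 ± 0.17 (interval 0.32 to 1.06, unadjusted p = 0.00168, adjusted p = 0.129 in limma). GH3.3 had 8.83 and 8.11 in aux1 air, which both lay between the Col air arrays of 9.44 and 6.04. Its change of 0.73 ± 0.75 was 2.43 without Col air replicate 1 (adjusted p = 0.00322) and -0.97 without Col air replicate 2 (adjusted p = 0.231), so not even its direction was fixed by these arrays. GH3.1 stood at -1.11 ± 0.39 (adjusted p = 0.375), at -0.30 without Col air replicate 1 (adjusted p = 0.8995) and at -1.93 without Col air replicate 2 (adjusted p = 0.00184). GH3.17 differed by 0.04 ± 0.13 (interval -0.24 to 0.32).

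In ethylene, GH3.3 had 8.76 and 8.47 in aux1 ethylene, against 5.99 and 6.02 in Col ethylene. These 4 arrays form pairs that agree within 0.29 and lie over 2 apart, and the change was 2.61 ± 0.75 (6.09-fold, interval 0.95 to 4.26, unadjusted p = 0.00511). It was not called (adjusted p = 0.14 in limma), in a fit whose spread for GH3.3 includes the Col air arrays. In a fit without the Col air arrays, added after these values had been seen, the same change had an SE of 0.26 and an adjusted p of 0.000238. The other 3 genes were not called in either fit. WES1 had 9.74 and 9.51 in aux1 ethylene, against 9.03 and 9.14 in Col ethylene, a change of 0.54 ± 0.17 (adjusted p = 0.185). GH3.17 differed by 0.10 ± 0.13 (interval -0.18 to 0.38). Thus 0 of 4 genes were called with all arrays, where 1.89% of all features were. GH3.3 and WES1 had an unadjusted p under 0.05 in limma, and the share of all features under that looser limit was not counted.

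The effects of the hormones in the wild type were also set against each other, with IAA and ethylene effects taken from separate arrays. All 4 genes had a higher effect with IAA than with ethylene, where 2.28% of all features were called in that direction. The difference was 7.76 ± 1.07 for GH3.3 (6.02 with IAA and -1.74 with ethylene, adjusted p = 0.00127). It was 7.32 ± 0.55 for GH3.1 (6.05 with IAA and -1.27 with ethylene, adjusted p = 1.95e-05), with Col ethylene and Col mock near background. It was 3.44 ± 0.24 for WES1 (3.71 with IAA and 0.28 with ethylene, adjusted p = 1.15e-05). For GH3.17 it was 1.48 ± 0.18 (0.28 with IAA and -1.20 with ethylene, adjusted p = 0.000524). Across the 16 fits that each left out 1 array, all 4 genes kept this call, with a difference for GH3.3 of 6.06 when Col air replicate 1 was left out and 9.46 when replicate 2 was, and for GH3.1 of 6.50 and 8.13 in the same fits.

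The order of the group means differed among the genes. Groups of both experiments are ordered together. Between the experiments, the experiment itself, the gas or spray treatment and any batch cannot be told apart. For GH3.3, Col ethylene (6.01) was lowest, and its arrays did not overlap those of Col mock (7.54). Col air (7.74), ein2 mock (8.39), aux1 air (8.47) and aux1 ethylene (8.61) followed, and from Col mock on each of these groups overlapped the next. A gap of 4.95 then separated these from Col IAA (13.56) and ein2 IAA (13.70), which overlapped. For WES1, Col mock (8.58) and ein2 mock (8.61) overlapped at the low end, Col air (8.81) and Col ethylene (9.08) each stood apart from their neighbours, and aux1 air (9.50) and aux1 ethylene (9.62) overlapped. A gap of 2.67 separated them from ein2 IAA (12.29) and Col IAA (12.30).

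For GH3.17, Col ethylene (9.49) and aux1 ethylene (9.59) were lowest, without overlap between them, and all their arrays lay below those of Col air (10.69), aux1 air (10.73) and Col mock (10.73), which overlapped. Col IAA (11.01), ein2 mock (11.23) and ein2 IAA (11.34) followed, each overlapping the next. The whole range of group means was 1.85 for GH3.17, against 3.71 for WES1, 6.71 for GH3.1 and 7.69 for GH3.3. For GH3.1, the 5 groups below ein2 mock (4.16) had means between 1.84 and 3.35, at or near background, and both IAA groups stood 4.23 or more above ein2 mock. The levels of ein2 mock and Col air overlapped for GH3.1.

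GH3.17 thus fell with ethylene in Col and in aux1 and was higher in ein2 than in Col in mock. Among all features, 318 were called lower with ethylene in Col and in aux1, which is 48.3% of the 658 called lower in Col and 61.2% of the 520 called lower in aux1. Of these 318 features 87 (27.4%) were also called higher in ein2 than in Col in mock, which is 11.8% of the 740 features called higher there, and GH3.17 is 1 of the 87. The group means of these 3 comparisons come from separate arrays. The spread behind their calls was estimated for each feature over all arrays together. The calls are therefore not independent, and how much of these overlaps comes from the shared spread was not tested.

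Likeness to other genes was measured as the root-mean-square (RMS) difference between group means over the 8 groups, each gene centred on its own mean, among the tested features with a locus code. The nearest genes were picked by these same group means, so a pattern they share with the GH3 gene follows from the choice. Nearest to GH3.3 was LBD29 (AT3G58190), a transcription factor of lateral root formation, at an RMS difference of 0.38, followed by AT1G64405 (0.68) and AT5G14650 (0.87). LBD29 and AT1G64405 were called lower with ethylene in Col (-1.02 and -0.67, adjusted p = 0.0479 and 0.0228 in limma). GH3.3 had a larger change there, -1.74 ± 0.75, but was not called. AT1G64405 was also called lower in aux1 (-1.80, adjusted p = 4.9e-05 in limma). AT5G14650 had means of 2.30 to 2.44 in all groups without IAA, near background. Differences between these genes were not tested. Nearest to GH3.1 were AT4G37295 (0.66), AT5G14650 (0.78) and LBD29 (0.81). LBD29 had means of 10.41 in Col IAA and 4.40 in Col mock, and of 10.54 in ein2 IAA and 5.96 in ein2 mock. Like GH3.1, by which it was picked, it had a mock mean that was higher in ein2 than in Col and IAA means that were close. GH3.1 and GH3.3 differed from each other by 0.92, and WES1 from GH3.3 by 1.35.

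Nearest to WES1 were CLE44 (AT4G13195), which encodes a signal peptide of vascular development, at 0.38, AT5G55050 at 0.47 and AT1G62770 at 0.48. CLE44 rose by 3.57 with IAA in Col and by 3.41 in ein2, and it fell with ethylene in Col (-0.71, adjusted p = 0.0145 in limma). WES1 was not called there, and the difference between the genes was not tested. Nearest to GH3.17 were AT5G48540 (0.13), AT1G22550 (0.14) and 2A6 (AT1G03410, 0.14). All 3 were called lower with ethylene in Col and in aux1 (adjusted p between 0.000309 and 0.029 in limma), and none was called with IAA. These calls use the values by which the genes were picked, so they are description and no test. With the likeness taken over the 16 arrays, 3 of 3 names were the same for GH3.1 and WES1, and 2 of 3 for GH3.3 and GH3.17.

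**Figure D5:**
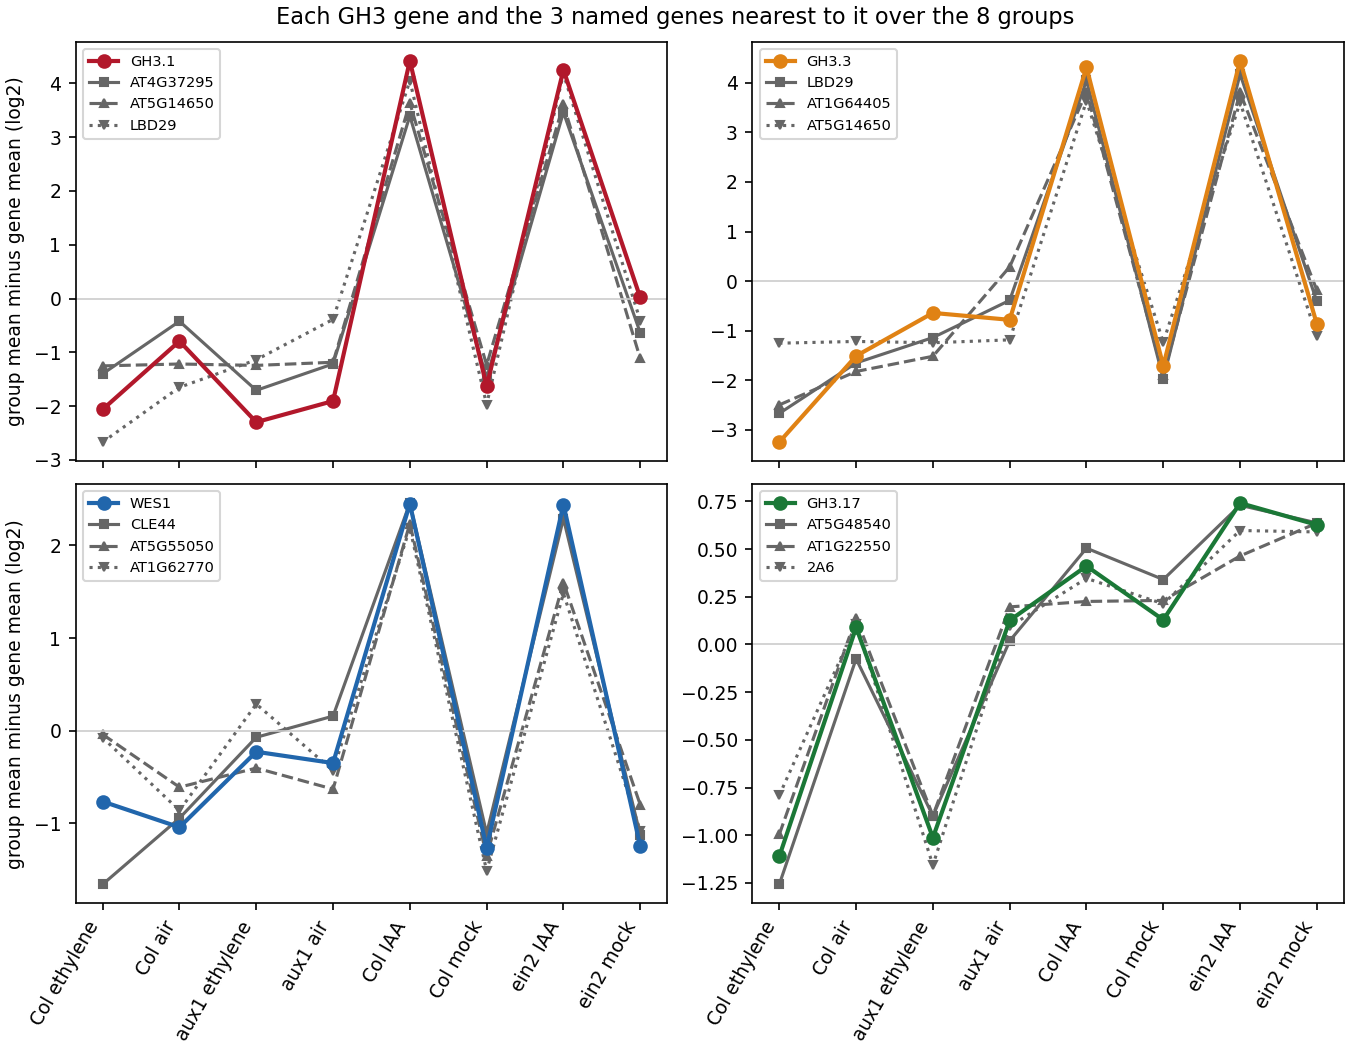
Group means (log2) minus the gene's mean over the 8 groups for each GH3 gene (coloured) and the 3 named genes with the smallest RMS difference to it (grey), with the groups along the horizontal axis and lines drawn only to guide the eye. The neighbours of GH3.1, GH3.3 and WES1 peak in both IAA groups, and those of GH3.17 are lowest in both ethylene groups. The neighbours were picked by these same means, so this likeness follows from the choice.

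Few other genes of the pathway had a probe set that the annotation names. Of 16 further GH3 loci listed, 8 had one and 2 were tested, AT1G48690 and AT1G23160. AT1G48690 moved with ethylene opposite to GH3.17: it had 9.35 and 9.26 in Col ethylene against 8.39 and 7.97 in Col air, a change of 1.13 ± 0.18 (adjusted p = 0.00211), and it rose by 1.19 ± 0.18 in aux1 (adjusted p = 0.00169). In mock it had 5.16 and 5.38 in ein2 against 7.41 and 7.88 in Col, a change of -2.37 ± 0.18 (adjusted p = 8.1e-06). With IAA it stood at -0.24 ± 0.18 in Col and 0.06 ± 0.18 in ein2, and it was not called. Its groups overlapped neither between ethylene and air nor between ein2 and Col in mock.

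AT1G23160 was called in none of the 11 comparisons. Its values were low, from 2.44 in aux1 ethylene replicate 1 to 4.29 in Col air replicate 1, which limits what the lack of calls can show. Of 6 loci of other enzymes that inactivate IAA, 3 were tested and 0 were called with either hormone in either genotype. Over all features, 959 were called with IAA in Col, 449 with IAA in ein2, 1219 with ethylene in Col and 982 in aux1. The medians of the 3 were 0.01 for IAA in Col and -0.02 for ethylene in Col, beside 0.0008 and 0.03 over all features. The median for IAA in Col covers unlike changes. They were -1.33 ± 0.37 for AT1G14120 (adjusted p = 0.053 in limma), 0.14 ± 0.21 for AT1G14130 and 0.01 ± 0.12 for UGT74D1. AT1G14120 had 5.17 and 6.29 in Col IAA, against 6.84 and 7.28 in Col mock, without overlap. In the ethylene experiment its values of 1.81 to 3.79 were low, which limits what its lack of an ethylene call can show. IAA18 (AT1G51950) was the only one of 29 Aux/IAA repressor loci tested, and it was not called (0.28 ± 0.17 with IAA in Col, adjusted p = 0.409). The 7 IAA-amino acid hydrolases, 6 auxin receptors and 15 auxin response factors listed had 0 named probe sets, so they were not analysed here. Over the 4 GH3 genes themselves, the median change was 4.87 with IAA in Col and 3.96 in ein2, and -1.23 with ethylene in Col and -0.14 in aux1, beside medians of all features within 0.03 of 0. With ethylene in Col that median depended on the control array: leaving out Col air replicate 1 gave -0.25, and leaving out replicate 2 gave -1.57.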

How the data were processed

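RNA from roots was measured on 16 Affymetrix arrays of 22810 probe sets. The deposited values are GCRMA expression values on a log2 scale. The submitters' processing notes name GCRMA, and values of 1.24 to 15.40 show the log2 scale. GCRMA by default corrects background, normalizes quantiles and summarises probe sets. Its settings are not given in the sources used here. Precision is limited by having 2 arrays a group.

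The annotation gave 1 gene for 13436 probe sets, several for 503, a name without locus code for 77, and did not list 8730. The 64 controls, the 503 and the 77 were left out. For 144 loci with several probe sets the one with the highest mean was kept. Unlisted probe sets were kept as features, and no name was given to them. Features above 4 in at least 2 arrays were tested (7642 with a locus code, 6194 unlisted). A linear model with 1 mean for each of the 8 groups (8 residual and 3.39 prior degrees of freedom) was fitted to the 16 arrays with limma 3.58.1 (R 4.3.3), and 11 contrasts were tested, two-sided. The fit was tested on simulated data. Tables were made in Python 3.11.15.

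Beside the 4 GH3 genes, the rule for names took the 3 nearest genes of each and the called members of the gene lists. Members and lists were chosen with earlier results of these data known. Alternatives covered scaling (quantile, or centred medians), the filter (at 6, or none), a trend of variance with intensity, fits to 1 experiment, the handling of probe sets, a replicate block and fits without each array.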

Additional observations from a re-analysis of the deposited data

How the results depend on the processing

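In the 11 settings other than leaving out an array, 461 of 464 changes of the 4 GH3 genes kept their direction and their side of the threshold, and 0 changed direction. GH3.1 was called lower with ethylene in Col after median centring (-1.32, adjusted p = 0.0462 in limma), which gave 2 of 4 genes called. GH3.3 was called higher in ein2 than in Col in mock when only the auxin experiment was fitted (0.84, adjusted p = 0.0488). GH3.3 was called between aux1 and Col in ethylene without the Col air arrays, which gave 1 gene called in that setting, added after the data were seen. With 1 array left out, 673 of 704 values kept both. Between these fits the number of genes called was 1 to 3 for ethylene in Col, 0 to 2 for the ethylene effect of aux1 minus Col, 0 to 1 for aux1 against Col in air and in ethylene, and 0 to 2 for ein2 against Col in mock. It was constant for both IAA comparisons (3), ethylene in aux1 (1), the IAA effect of ein2 minus Col (0), ein2 against Col in IAA (0) and IAA minus ethylene in Col (4). In fits that left out an array of a group, the remaining array is assumed to vary like the other groups.

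Direction changed with an array left out for changes that were not called: GH3.3 with ethylene in aux1 (-0.22 to 0.50) and in aux1 against Col in air (-0.97 to 2.43), GH3.17 in the ethylene effect of aux1 minus Col (-0.0756 to 0.20) and in aux1 against Col in air (-0.10 to 0.17), WES1 in the IAA effect of ein2 minus Col (-0.30 to 0.24), in ein2 against Col in mock (-0.12 to 0.16) and in IAA (-0.28 to 0.27), and in ein2 against Col in IAA also GH3.1 (-0.40 to 0.0663) and GH3.3 (-0.0228 to 0.29). The cause was not tested, except that each fit holds 1 array fewer.

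Same-numbered arrays deviated together across features, with correlations of 0.31 to 0.415 among the groups of the ethylene experiment and 0.104 to 0.401 in the auxin experiment, but nothing in the labels says that a number marks a shared batch. A replicate block within each experiment changed no call of the 4 GH3 genes, with adjusted p of 0.0583 for GH3.1 and 0.125 for GH3.3 with ethylene in Col, 0.063 for GH3.3 in aux1 against Col in ethylene, and 0.0587 for WES1 in aux1 against Col in air. Over all features the block gave 1566 calls, against 959 without it, for IAA in Col, 733 against 449 for IAA in ein2, 1483 against 982 for ethylene in aux1, 171 against 94 for aux1 and Col in air, 538 against 262 for aux1 and Col in ethylene, 2350 against 1534 for ein2 and Col in mock, 994 against 604 for IAA minus ethylene, and 5 against 0 for the IAA effect of ein2 minus Col. That last count was 3 with no filter and 2 with locus-coded features alone. Fits to the ethylene experiment alone gave fewer calls: 675 for ethylene in Col (1219 over all arrays), 497 for ethylene in aux1, 51 and 91 for aux1 and Col in air and in ethylene, and 3 for the ethylene effect of aux1 minus Col, which had 20 over all arrays and 6 with a filter at 6. Fits to the auxin experiment alone gave more: 1296 for IAA in Col, 545 for IAA in ein2, 2037 for ein2 and Col in mock and 1164 in IAA (998 over all arrays). With locus-coded features alone (7642 of 13836), the other counts lay between 11 and 746. The planned change of pseudocount applies to linear values and was not run.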

Other observations

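AT1G14120, listed among enzymes that inactivate IAA, was chosen here after its values were seen. Its arrays had 9.12 and 8.78 in ein2 mock against 6.84 and 7.28 in Col mock, and it was called higher in ein2 (1.89 ± 0.37, adjusted p = 0.0065 in limma). With IAA it had 8.53 and 8.95 in ein2 against 5.17 and 6.29 in Col, a change of 3.01 ± 0.37 (adjusted p = 0.000358). In the ethylene experiment it lay between 1.81 and 3.79 on all 8 arrays, in both genotypes, so Col air and Col mock differed by over 4 on the log2 scale. The experiment, the gas or spray treatment and any batch cannot be told apart in that difference.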
